A study of Mus musculus with 10 samples.

Results

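The genes described here are 9 members of the JAK-STAT signalling pathway, the transcription factor genes Stat2, Stat3, Stat4, Stat5a, Stat5b and Stat6 and the feedback genes Socs1, Socs2 and Socs3. They were taken by name from a list and are 9 of the 24538 genes in the count files. All 9 had a mean FPKM of at least 1 in either group and so were among the 11571 genes tested.

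RNA-seq was run on macrophages sorted from the lungs of wild type C57BL6/J female mice aged 8 to 10 weeks. Metastasis-associated macrophages (MAMs) came from lung metastases that grew after tail vein injection of E0771-LG cells, a breast cancer line of the same strain. Metastases were dissected and pooled from 2 to 4 mice per sample, so a MAM library is not a single animal. Resident alveolar macrophages (RAMs) came from normal lung of mice without tumour cells. Each group had 5 libraries. Both gates took large cells (FSC hi) that were CD45+, MRC1+, F4/80+ and LY6C-. MAMs were in addition CD11B+ and CD11C-, and RAMs were CD11B- and CD11C+. Transcription inhibitors were present during digestion. Libraries were made with the Ovation V2 kit and read as paired 100-base ends on an Illumina HiSeq. MAM libraries held 55391447 to 87523247 counts on genes (median 66942988), and RAM libraries held 50746305 to 72150650 (median 52760267). The comparison of MAMs with RAMs asks how macrophages at metastases differ from the resident macrophages of healthy lung. The groups differ in sort gate, mice and tumour at once, so the parts of these cannot be told apart. A change here is a difference between the groups, not a change over time.

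The group labels were checked against marker genes. Of 9 markers of monocyte-derived macrophages, 9 were higher in MAMs (28.9% of all genes tested were), and their summed level was 13508 ± 662 CPM in MAMs and 168 ± 6.75 in RAMs (SD, n = 5 each). CPM is a count scaled to the normalized library total of the tested genes. Of 11 alveolar macrophage markers, 10 were lower in MAMs (27.3% of all genes tested were), and the sum was 578 ± 124 CPM in MAMs and 5745 ± 309 in RAMs. Siglecf, a surface lectin of alveolar macrophages, was at 3.85 ± 0.680 CPM in MAMs and 333 ± 35.6 in RAMs (chosen after its values were seen). The first sum holds Itgam (CD11B), at 6270 CPM in MAMs and 64.3 in RAMs. The second holds Itgax (CD11C), at 171 and 991 CPM (both named after their values were seen). The sort gates selected on these proteins, so these genes are no check of the labels. Of 8 general macrophage markers, 4 were higher in MAMs (28.9% of all genes tested were), 3 were lower (27.3%) and 1 did not pass the test.

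As background, cytokine receptors without kinase activity of their own carry Janus kinases (JAKs), which phosphorylate STAT proteins. Phosphorylated STATs pair, enter the nucleus and bind DNA. STAT2 works with IRF9 downstream of type I interferon, STAT3 downstream of the interleukin-6 and interleukin-10 families, STAT4 downstream of interleukin-12, STAT5A and STAT5B downstream of GM-CSF and growth hormone, and STAT6 downstream of interleukin-4 and interleukin-13. SOCS genes are switched on by STATs, and their proteins bind receptors or JAKs and restrain the same pathways. In the lung, alveolar macrophages depend on GM-CSF for their development.

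Promoter sequences were searched for the DNA motifs that STAT complexes are known to bind, because members that changed together could then be compared by sequence. RefSeq promoters on GRCm38.p6 were available for 8 of the 9 genes, in 11 entries. The 250 bases before each start site were searched on both strands for GAAANNGAAA (ISRE-type, the motif of the STAT2 and IRF9 complex), TTCNNNGAA (GAS, the usual STAT motif) and TTCNNNNGAA (STAT6-type, with 1 more base in its spacer). Among all 32851 promoters of the table, 2.98% held the ISRE-type motif, 7.02% the GAS motif and 5.85% the STAT6-type motif. A match was found in 4 of the 11 entries, and those are shown 5′ to 3′ on the strand of the gene, with the matched letters in capitals.
Stat2, chr10:128270248-128270497, plus strand: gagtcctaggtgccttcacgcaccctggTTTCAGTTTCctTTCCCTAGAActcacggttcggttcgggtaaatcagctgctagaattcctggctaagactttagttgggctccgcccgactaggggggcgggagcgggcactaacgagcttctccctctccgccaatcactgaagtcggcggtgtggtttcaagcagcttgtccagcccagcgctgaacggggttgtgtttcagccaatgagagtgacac
Stat4, chr1:52007990-52008239, plus strand: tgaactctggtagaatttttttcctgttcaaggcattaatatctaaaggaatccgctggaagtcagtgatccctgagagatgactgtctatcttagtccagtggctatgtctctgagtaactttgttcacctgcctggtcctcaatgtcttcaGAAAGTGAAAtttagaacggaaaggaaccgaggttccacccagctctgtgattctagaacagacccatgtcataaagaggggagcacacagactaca
Socs1, chr16:10785537-10785786, minus strand: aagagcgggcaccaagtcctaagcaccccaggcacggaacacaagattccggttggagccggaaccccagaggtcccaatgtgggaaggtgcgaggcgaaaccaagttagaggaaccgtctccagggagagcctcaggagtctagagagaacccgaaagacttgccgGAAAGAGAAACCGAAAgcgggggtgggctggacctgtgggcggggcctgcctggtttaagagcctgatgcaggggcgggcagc
Socs3, chr11:117969452-117969616, minus strand: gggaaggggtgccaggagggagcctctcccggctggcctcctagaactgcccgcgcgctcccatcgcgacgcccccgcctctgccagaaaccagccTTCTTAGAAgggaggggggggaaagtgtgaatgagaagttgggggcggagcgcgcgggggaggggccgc

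Stat2 held TTTCAGTTTC, the ISRE-type motif read on the other strand, 212 bases before the start site, and TTCCCTAGAA, a STAT6-type match, 200 bases before it. Stat4 held GAAAGTGAAA (ISRE-type) 87 bases before the start site of the second of its entries, a window that lies inside the gene and outside its exons. Socs1 held GAAAGAGAAA and GAAACCGAAA, overlapping ISRE-type matches that end 73 and 67 bases before the start site. Socs3 held TTCTTAGAA, a GAS match, 145 bases before the start site, in a window that also lies inside the span of the gene. The window is shown for 165 bases, since the rest touched 77 exonic bases. No match was found in the windows of Stat3, Stat5a, Stat5b or Stat6 or in the other window of Stat4, which says only that these letters were not there. Socs2 had no entry. A match is a description of letters and was not tested for binding.

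Most of the 9 genes differed between the groups, in both directions. By the quasi-likelihood test of edgeR, with Benjamini-Hochberg adjustment across all tested genes, 8 of 9 passed an adjusted p of 0.05, against 56.2% of all genes tested. Of these, 5 were higher in MAMs (28.9% of all genes were) and 3 were lower (27.3%). A gene was called when its fold change was also over 2. This left 6 of 9 genes, against 30.3% of all genes tested. Called higher were Stat2, Stat4, Socs1 and Socs3 (4 of 9, background 15.3%), the same 4 genes whose promoters held a match, an overlap seen after the values were known and not tested. Those matches were not all of the same motif, the other entry of Stat4 held none, and Socs2 had no entry to search. Called lower were Stat5a and Socs2 (2 of 9, background 15.1%). Of the 9 genes, Stat4 reached the FPKM filter in MAMs alone, which favoured its direction. The 5 libraries of each group did not overlap for 8 of 9 genes, against 44.9% of all genes. The median log2 fold change of the 9 genes was 0.45, beside -0.015 for all genes tested. The median absolute log2 fold change of all genes tested was 0.56.

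Upper-quartile scaling shifted the median log2 fold change of all genes by -0.16, and RLE size factors shifted it by 0.0077. The direction of each of the 9 genes held under each scaling, except for Stat6, as described with that gene. Each library is bulk RNA, so fewer cells with a transcript and less RNA per cell cannot be told apart. The p-values measure the spread between samples, and intervals or floors cover counting error only. The strand setting of the counts was not stated, so reads of genes that overlap on opposite strands cannot be told apart.

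**Figure D1:**
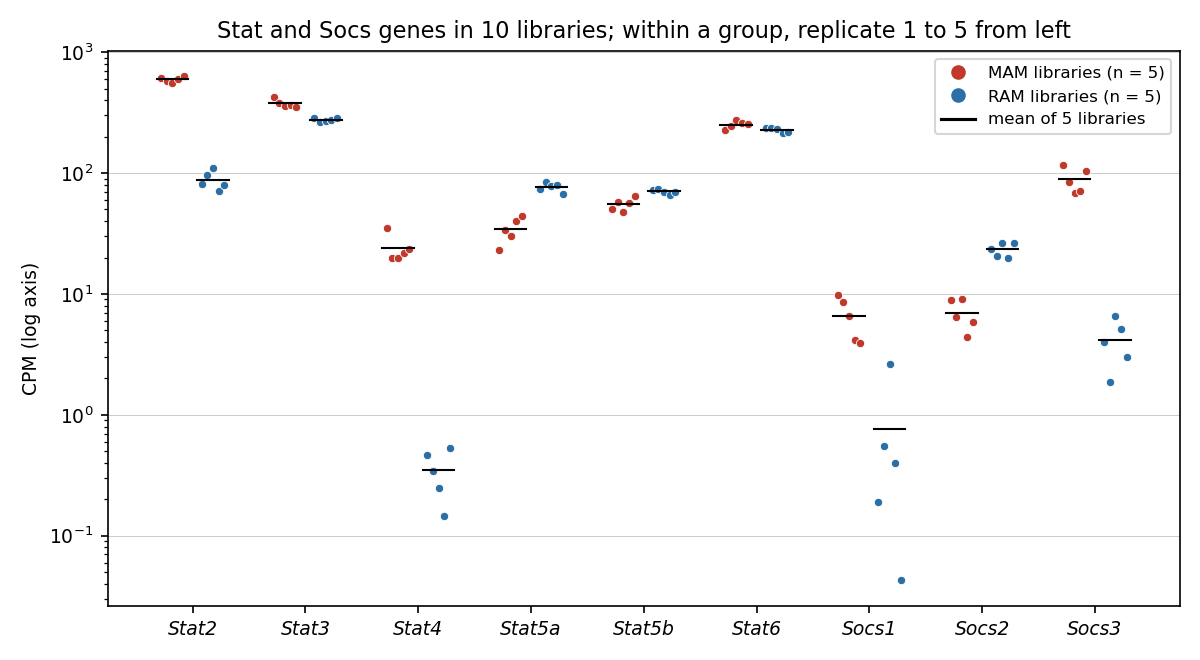
Level of each of the 9 Stat and Socs genes in CPM (log axis) in the 5 MAM libraries (red) and 5 RAM libraries (blue), replicates 1 to 5 from left, with a bar at each mean. Stat6 is the gene whose groups overlap, and Socs1 in RAMs has the widest scatter, from 0.0426 to 2.61 CPM.

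Stat2 was the most abundant of the 6 STAT genes in MAMs. The gene (ENSMUSG00000040033.16) spans chr10:128270559-128292849 on the plus strand of GRCm38 and has 24 exons in its longest coding transcript. Its level was 608, 578, 558, 605 and 636 CPM in MAM replicates 1 to 5, and 82.0, 96.8, 110.1, 71.7 and 79.6 CPM in RAM replicates 1 to 5. The groups lay far apart, and the MAM libraries differed little among themselves, with a coefficient of variation of 4.99% in MAMs and 17.4% in RAMs. RAM replicate 3 was the highest of its group. Stat2 had a log2 fold change of 2.76 (SE 0.109, adjusted p = 1.25e-11 in the edgeR test), larger in size than that of 88.5% of all genes tested. In FPKM, which also scales for transcript length, Stat2 was at 122 ± 5.55 in MAMs and 18.7 ± 3.59 in RAMs (SD, n = 5 each). That level was above 94.9% of all tested genes in MAMs and above 69.9% in RAMs.

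Stat3, the factor of interleukin-6 and interleukin-10 signals, was abundant in both groups and moderately higher in MAMs. It spans chr11:100885098-100939540 on the minus strand (ENSMUSG00000004040.16, 24 exons). MAM replicates 1 to 5 had 426, 378, 360.4, 368 and 352 CPM of Stat3, and RAM replicates 1 to 5 had 288, 267, 269, 275 and 284. The lowest MAM library was above the highest RAM library, and MAM replicate 1 stood highest. The difference was 0.45 on the log2 scale (SE 0.0692, adjusted p = 5.5e-05 in the edgeR test), and 0.28 under upper-quartile scaling. It passed the test without reaching a fold change of 2, and 42.8% of all genes tested changed less. As FPKM, Stat3 was at 81.5 ± 6.59 in MAMs and 60.3 ± 1.98 in RAMs. The last exons of Stat3 and of its neighbour Stat5a share 72 bases on opposite strands, where reads of the pair cannot be told apart.

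Stat4, best known from T cells and natural killer cells, showed the largest fold change of the 9 genes in the edgeR test. It spans chr1:51987148-52107189 on the plus strand (ENSMUSG00000062939.11, 24 exons). Its level in MAM replicates 1 to 5 was 35.0, 20.0, 19.8, 22.0 and 23.6 CPM, from 887 to 1722 counts. In RAM replicates 1 to 5 it was 0.462, 0.345, 0.248, 0.146 and 0.533 CPM, from 7 to 27 counts. MAM replicate 1 was above the other MAM libraries, and no RAM library came near any of them. Stat4 had a log2 fold change of 6.10 (SE 0.351, adjusted p = 9.24e-10 in the edgeR test), the 348th largest in size among all genes tested. With limma on log2(FPKM + 1) the value was 2.81, since 1 was added to RAM levels near 0, and Socs3 was then the larger at 3.90. The level of Stat4 was low even in MAMs, at 6.92 ± 2.201 FPKM, above 41.6% of tested genes, whereas its 0.101 ± 0.0505 FPKM in RAMs was above 2.05%. Stat4 thus reached the FPKM filter in MAMs alone, so the filter itself favoured this direction. With no filter its log2 fold change was 6.12.

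The RAM level of Stat4 in CPM was 1.44% of its MAM level. Among 115 genes with over 1000 CPM in MAMs, the lowest RAM level was 0.912% of the MAM level, and 13 were under 2%. Among 80 genes with over 1000 CPM in RAMs, the lowest MAM level was 1.07%, and 2 were under 2%. What part a level common to all genes had in the Stat4 counts of RAMs was not tested. In GENCODE, 24.1% of the 100-base windows of the longest coding Stat4 transcript were also found in 1 other annotated gene on the same strand, which shares 1033 exonic bases with it. Counts in these bases are uncertain to that extent.

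Markers of lymphocytes were measured beside Stat4, and their part in its level was not tested. The 9 natural killer cell markers summed to 48.4, 40.6, 30.5, 16.8 and 23.4 CPM in MAM replicates 1 to 5 and to 13.9, 13.5, 10.7, 13.2 and 16.9 CPM in RAM replicates 1 to 5. Of the 9, 2 were tested. Klrk1, an activating receptor and the most abundant of them, was called higher in MAMs, at 29.0 CPM in MAMs and 0.800 in RAMs (log2 fold change 5.20). Prf1, which encodes perforin, was called lower, at 0.287 CPM in MAMs and 11.3 in RAMs (log2 fold change -5.28, chosen after its values were seen). The direction of the sum was set by Klrk1, since the other 8 markers summed to 2.90 ± 2.31 CPM in MAMs and 12.8 ± 1.61 in RAMs (SD, n = 5 each). The markers not tested, all named after their values were seen, were low in both groups. Klrd1 was at 0.548 CPM in MAMs and 0.186 in RAMs, Gzmb at 1.03 and 0.380, Nkg7 at 0.453 and 0.254, and Eomes at 0.375 and 0.0611. Gzma was at 0.166 CPM in MAMs and 0.436 in RAMs, Klrb1c at 0.0358 and 0.165, and Ncr1, a receptor that defines these cells, at 0.00375 and 0.0885. In single libraries Ncr1 had 0 to 1 counts in MAMs and 0 to 21 in RAMs.

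The 10 T cell markers in the files summed to 48.0, 46.1, 36.2, 26.1 and 42.4 CPM in MAM replicates 1 to 5 and to 271, 297, 259, 302 and 315 CPM in RAM replicates 1 to 5. The lower sum in MAMs rested on Cd2, an adhesion receptor, at 282 CPM in RAMs and 21.1 in MAMs (log2 fold change -3.75). Without Cd2, the other 9 markers summed to 18.7 ± 6.22 CPM in MAMs and 6.28 ± 2.99 in RAMs (SD, n = 5 each). Sums without the most abundant gene of a list were added after seeing the data. Of the 10, 4 were tested. Cd4, a coreceptor, was called higher in MAMs, at 10.1 CPM in MAMs and 0.619 in RAMs (log2 fold change 4.01). Cd3e, at 1.58 and 1.22 CPM, and Cd247, at 1.28 and 1.04 CPM, both parts of the T cell receptor complex, did not pass the test. Among those not tested, Cd28 was at 3.43 CPM in MAMs and 0.530 in RAMs. Cd3d was at 0.362 CPM in MAMs and 0.198 in RAMs, Cd3g at 0.0736 and 0.364, Lck at 0.558 and 0.298, Cd8a at 0.417 and 0.558, and Cd5 at 0.841 and 1.45. The T cell markers besides Cd2 were named after their values were seen.

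Stat5a and Stat5b, the near-identical factors of GM-CSF signalling, were lower in MAMs. Stat5a spans chr11:100859351-100885169 on the plus strand (ENSMUSG00000004043.14, 20 exons). Stat5b lies 8.63 kb from it at chr11:100780731-100850724 on the minus strand (ENSMUSG00000020919.11, 19 exons). Stat5a was at 23.3, 34.1, 30.0, 40.4 and 43.9 CPM in MAM replicates 1 to 5, and at 74.2, 85.0, 78.4, 79.1 and 66.6 CPM in RAM replicates 1 to 5. Its groups did not overlap, and MAM replicate 1 was the lowest library. Stat5a differed by a log2 fold change of -1.16 (SE 0.153, adjusted p = 1.09e-05 in the edgeR test). Stat5b was at 50.5, 57.4, 47.2, 56.2 and 64.3 CPM in MAM replicates 1 to 5, and at 73.0, 74.1, 69.9, 65.9 and 69.7 CPM in RAM replicates 1 to 5. MAM replicate 5 came close to RAM replicate 4, the lowest of its group, so the groups were apart by little. Stat5b had a log2 fold change of -0.36 (SE 0.101, adjusted p = 0.00758 in the edgeR test), which did not reach a fold change of 2.

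The balance of the pair also differed between the groups. In FPKM, Stat5a was at 7.81 ± 1.64 in MAMs and 17.1 ± 2.02 in RAMs, and Stat5b was at 10.6 ± 1.14 and 13.3 ± 0.508 (SD, n = 5 each). The FPKM ratio of Stat5a to Stat5b was 0.738 ± 0.119 in MAMs and 1.29 ± 0.197 in RAMs (two-sided exact permutation test over libraries on log2 ratios, p = 0.00794, the smallest that 5 against 5 libraries can give). Stat5a was thus below Stat5b in every MAM library, up to a ratio of 0.820, and above it in every RAM library, from 1.15. Of the 100-base windows in the longest coding transcripts, 6.99% of those of Stat5a and 5.18% of those of Stat5b occurred in the other gene, and reads there are uncertain.

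Stat6, the factor of interleukin-4 and interleukin-13, was the member that did not pass the test. It spans chr10:127642986-127660957 on the plus strand (ENSMUSG00000002147.18, 22 exons), 609.6 kb from Stat2. MAM replicates 1 to 5 had 228, 246, 276, 258 and 253 CPM of Stat6, and RAM replicates 1 to 5 had 235, 235, 232, 214 and 220.03. MAM replicate 1 lay inside the RAM range, and the other MAM libraries lay above it. Stat6 had a log2 fold change of 0.15 (SE 0.0700, adjusted p = 0.0775 in the edgeR test). The value was -0.012 under upper-quartile scaling, so its direction depended on the scaling. Without MAM replicate 1 it passed the test, at 0.19 (adjusted p = 0.0367 in the edgeR test). Over the alternatives with all libraries the adjusted p reached 0.901. Its FPKM was 63.7 ± 5.63 in MAMs and 58.4 ± 1.17 in RAMs, above 90.0% and 90.9% of tested genes. Stat6 shares 40 exonic bases with a gene on the opposite strand.

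**Figure D2:**
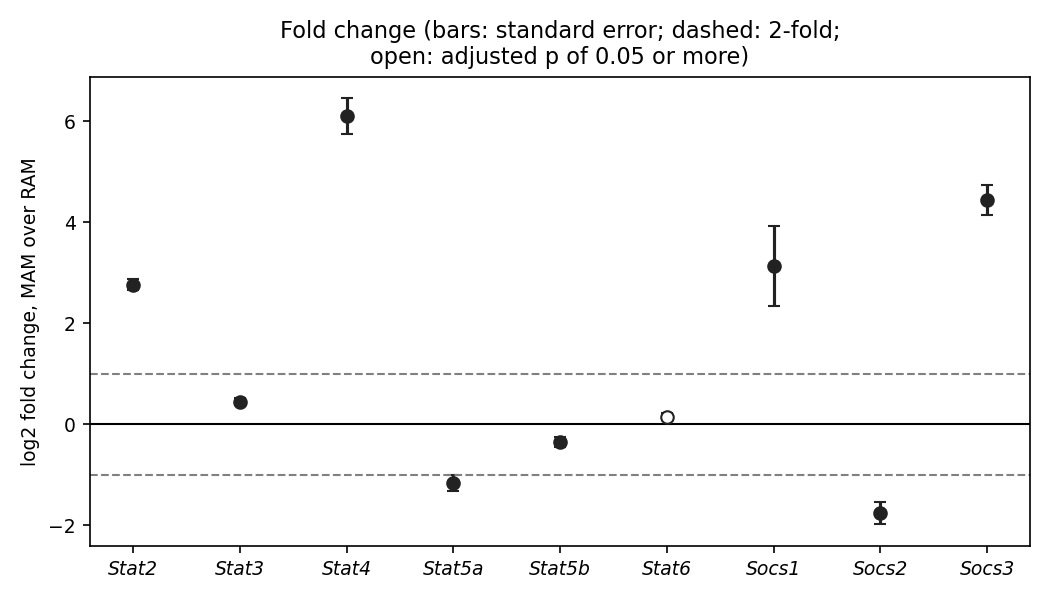
Log2 fold change of MAMs over RAMs for the 9 Stat and Socs genes, with bars of 1 standard error and dashed lines at a fold change of 2. Stat4 is highest at 6.10, Socs2 is lowest at -1.76, and Stat6 (open circle) did not pass the test.

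Per transcript length, the mix of STAT transcripts differed between the groups. The summed FPKM of the 6 STAT genes was 293 ± 5.03 in MAMs and 168 ± 3.07 in RAMs (SD, n = 5 each), a ratio of 1.74. In order of FPKM, the MAM mix ran Stat2, Stat3, Stat6, Stat5b, Stat5a and Stat4. The RAM mix ran Stat3, Stat6, Stat2, Stat5a, Stat5b and Stat4. Among neighbours in the RAM order, the FPKM ranges of Stat3 and Stat6 overlapped, as did those of Stat2 and Stat5a. In the MAM order, the FPKM ranges of Stat5b and Stat5a overlapped, as did those of Stat5a and Stat4.

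Each share was compared by the exact permutation test over libraries, two-sided, for 6 STAT and 3 SOCS genes. Stat2 made up 41.8% ± 1.44 of the STAT FPKM in MAMs and 11.1% ± 1.93 in RAMs. Stat3 made up 27.8% ± 2.07 in MAMs and 36.0% ± 1.64 in RAMs, although its own level was higher in MAMs. The share of Stat6 was 21.8% ± 2.1997 in MAMs and 34.8% ± 0.564 in RAMs. Those of Stat5a were 2.67% ± 0.563 and 10.2% ± 1.23, in the same order. Stat5b had shares of 3.60% ± 0.380 and 7.92% ± 0.283. Stat4 made up 2.35% ± 0.708 in MAMs and 0.0605% ± 0.0306 in RAMs. For each of the 6 shares the groups did not overlap (exact permutation test, p = 0.00794). The FPKM ratio of Stat2 to Stat3 was 1.51 ± 0.150 in MAMs and 0.312 ± 0.0666 in RAMs, and that of Stat2 to Stat6 was 1.93 ± 0.232 and 0.320 ± 0.0569 (exact permutation test on log2 ratios, p = 0.00794 for each). Shares sum to the whole, so a higher share of Stat2 lowers the others by arithmetic.

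**Figure D3:**
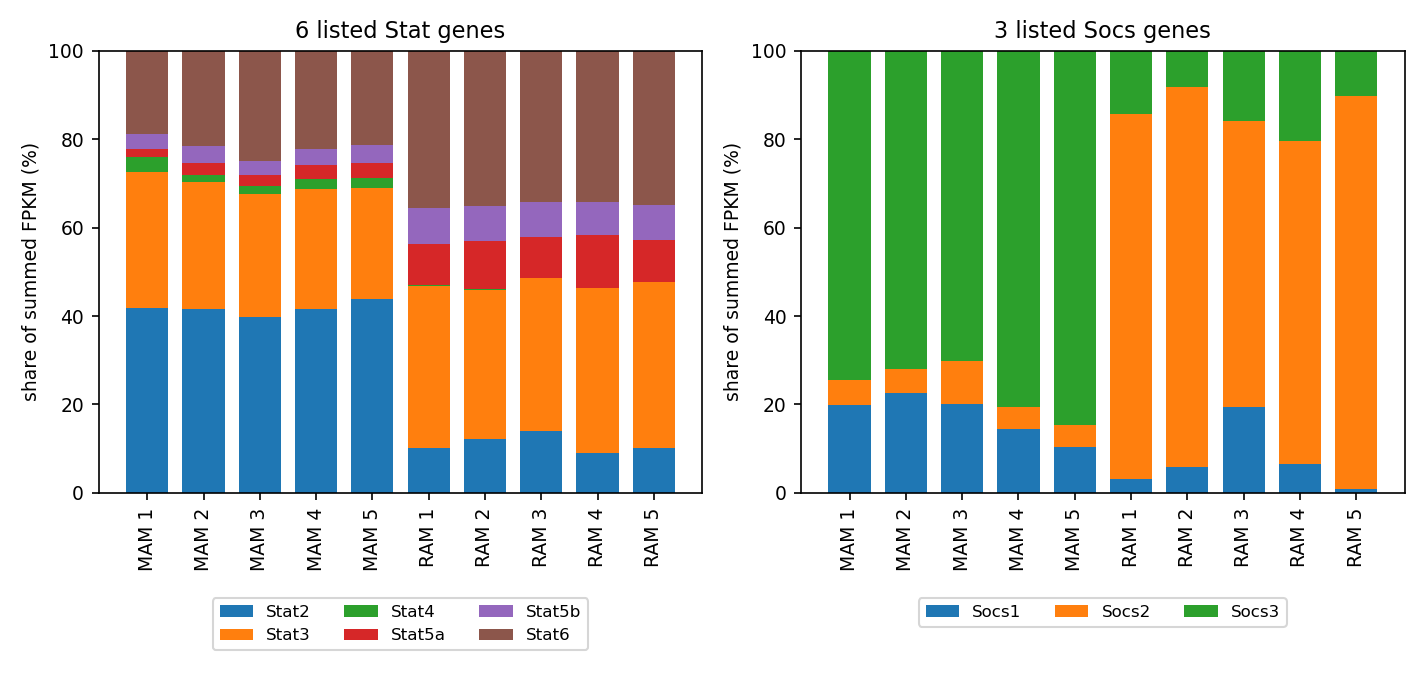
Share of each gene in the summed FPKM of the 6 listed Stat genes (left) and the 3 listed Socs genes (right), as stacked bars from 0 to 100% for each of the 10 libraries. Stat2 is the largest STAT share in each MAM library, at 39.8% to 43.9%, and Socs2 is the largest SOCS share in each RAM library, at 64.6% to 89.0%.

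Among the SOCS genes, Socs3 and Socs1 were higher in MAMs and Socs2 was lower. Socs3, whose protein restrains receptors that share the gp130 chain, spans chr11:117966079-117970047 on the minus strand (ENSMUSG00000053113.3, 2 exons). It was at 116, 83.7, 68.4, 71.1 and 104 CPM in MAM replicates 1 to 5, and at 4.01, 1.88, 6.58, 5.15 and 3.03 CPM in RAM replicates 1 to 5. MAM replicates 1 and 5 were the highest, RAM replicate 3 was the highest of its group, and the groups lay far apart. Socs3 had a log2 fold change of 4.43 (SE 0.299, adjusted p = 5.87e-09 in the edgeR test), and 93.8% of all genes tested changed less. Its FPKM was 43.8 ± 9.54 in MAMs, above 85.2% of tested genes, and 2.05 ± 0.865 in RAMs, above 16.8%. The RAM level in CPM was 4.65% of the MAM level. The GAS match of Socs3 stands in the sequence shown earlier.

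Socs1, whose protein blocks Janus kinases downstream of interferon receptors, spans chr16:10782240-10785536 on the minus strand (ENSMUSG00000038037.5, 2 exons). Its level was 9.84, 8.58, 6.55, 4.18 and 3.94 CPM in MAM replicates 1 to 5, from 231 to 484 counts. RAM replicates 1 to 5 had 0.188, 0.556, 2.61, 0.396 and 0.0426 CPM, from 2 to 126 counts. RAM replicate 3 was far above the other RAM libraries, and it came closer than any of them to the lowest MAM libraries, replicates 4 and 5. Socs1 had a log2 fold change of 3.13 (SE 0.788, adjusted p = 0.00333 in the edgeR test), the largest standard error of the 9 genes. Without RAM replicate 3 the value was 4.45. It was 4.03 with the replicate block and 2.49 with limma on log2(FPKM + 1), and the gene was called in each case. As FPKM, Socs1 was at 10.2 ± 4.10 in MAMs and 1.18 ± 1.53 in RAMs.

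Socs2, a feedback gene of STAT5 that restrains growth hormone signals, spans chr10:95385362-95417180 on the minus strand (ENSMUSG00000020027.18, 3 exons). MAM replicates 1 to 5 had 8.89, 6.45, 9.03, 4.38 and 5.83 CPM of Socs2, and RAM replicates 1 to 5 had 23.4, 20.5, 26.5, 19.8 and 26.6. Every MAM library was under every RAM library, and MAM replicate 4 was the lowest. Its log2 fold change was -1.76 (SE 0.223, adjusted p = 7.06e-06 in the edgeR test). Socs2 was at 3.45 ± 1.03 FPKM in MAMs, above 27.0% of tested genes, and at 11.4 ± 1.65 FPKM in RAMs, above 55.8%. Of the 100-base windows in its longest coding transcript, 10.4% occurred in 1 other annotated gene.

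Among the 3 listed SOCS genes, the leading transcript therefore differed by group. The 3 SOCS genes summed to 57.5 ± 12.4 FPKM in MAMs and 14.6 ± 3.13 in RAMs (SD, n = 5 each), a ratio of 3.93. Socs3 made up 76.4% ± 6.01 of this sum in MAMs and 13.8% ± 4.81 in RAMs, and Socs2 made up 6.08% ± 1.97 in MAMs and 79.1% ± 10.1 in RAMs (two-sided exact permutation test, p = 0.00794 for each). Socs1 made up 17.5% ± 4.91 in MAMs and 7.11% ± 7.28 in RAMs, where its groups overlapped (exact permutation test, p = 0.0397). That difference, 10.4 percentage points, passed the threshold in 3 of 10 comparisons with a library left out (8.85 to 13.5 points), those without MAM replicate 4, MAM replicate 5 or RAM replicate 3. With CPM in place of FPKM it was 4.07 points (exact permutation test, p = 0.0476). The FPKM ratio of Socs3 to Socs2 was 13.5 ± 3.85 in MAMs and 0.182 ± 0.0802 in RAMs (exact permutation test on log2 ratios, p = 0.00794). For Socs3 to Socs1 the ratio was 4.80 ± 2.04 in MAMs and 4.61 ± 4.90 in RAMs, and a difference was not detected (exact permutation test on log2 ratios, p = 0.413).

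The other genes of the CIS and SOCS family place the 3 members among their relatives. Of the 8 family genes, 3 were higher in MAMs (28.9% of all genes were), 2 were lower (27.3%) and 3 did not pass the test. Cish, a classic STAT5 target that binds cytokine receptors, was lower in MAMs, as was Socs2, at 3.83 ± 1.87 FPKM against 12.3 ± 1.28 in RAMs. The difference was -1.48 on the log2 scale (edgeR test, adjusted p = 0.00012). Socs6 was higher in MAMs, as were Socs1 and Socs3, at 15.4 ± 4.01 FPKM against 3.72 ± 1.38 in RAMs, by 2.03 on the log2 scale (edgeR test, adjusted p = 6.61e-06). The remaining genes, named after their values were seen, were Socs4, Socs5 and Socs7. Socs4 was at 14.8 ± 2.12 FPKM in MAMs and 12.4 ± 2.08 in RAMs. Socs5 was at 5.39 ± 0.406 and 6.17 ± 1.36, and Socs7 at 5.91 ± 0.739 and 5.53 ± 0.996 FPKM, in the same order. The 8 genes summed to 103 ± 16.9 FPKM in MAMs and 54.7 ± 5.86 in RAMs. Socs3 was 42.5% ± 4.50 of this sum in MAMs and 3.69% ± 1.35 in RAMs. Cish was 3.58% ± 1.12 in MAMs and 22.4% ± 1.72 in RAMs.

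**Figure D4:**
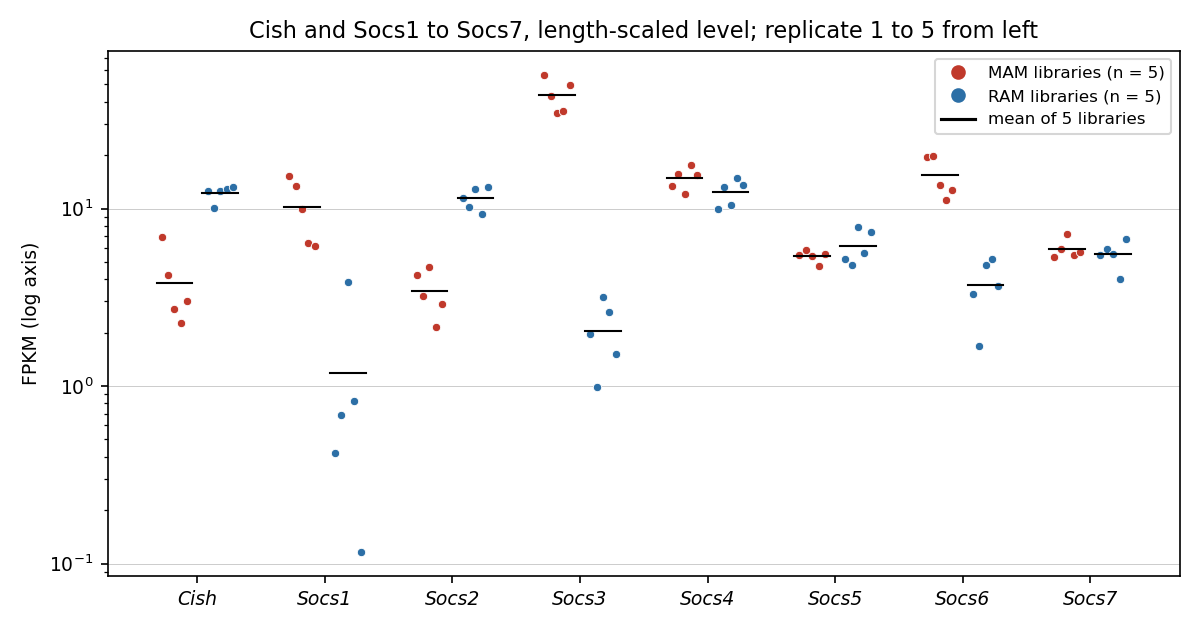
FPKM (log axis) of Cish and Socs1 to Socs7 in the 5 MAM (red) and 5 RAM libraries (blue), replicates 1 to 5 from left, with a bar at each mean. Socs3 is the highest of the 8 genes in MAMs at a mean of 43.8 FPKM, whereas in RAMs Socs4, Cish and Socs2 lie together at means of 12.4, 12.3 and 11.4.

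The Janus kinases, which phosphorylate the STATs, were mostly higher in MAMs. All 4 kinases passed, against 56.2% of all genes tested, with 3 higher in MAMs (28.9% of all genes were) and 1 lower (27.3%), and the median log2 fold change was 0.58, beside -0.015 for all genes tested. Of the 4, 1 was called, against 30.3% of all genes tested. Jak2 was at 182 ± 19.0 CPM in MAMs and 70.5 ± 6.97 in RAMs (log2 fold change 1.36), and it was the kinase called. Jak1, the most abundant by FPKM, was at 436 ± 27.3 and 287 ± 16.4 CPM (log2 fold change 0.60). Jak3 was at 26.9 ± 2.21 CPM in MAMs and 18.3 ± 3.63 in RAMs, a difference of 0.56 on the log2 scale. Tyk2, which pairs with the type I interferon receptor and was chosen after its values were seen, was lower in MAMs, at 104 ± 9.54 CPM against 135 ± 12.5 in RAMs. The 5 libraries of each group did not overlap for any of the 4 kinases, against 44.9% of all genes tested.

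Cytokine receptor chains that feed these STATs changed in both directions. Of 40 chains in the files, 26 were tested, with 14 higher in MAMs (28.9% of all genes were), 6 lower (27.3%) and 6 that did not pass. Of these, 14 were called higher (15.3% of all genes were) and 4 lower (15.1%), and the median log2 fold change was 1.16. Lepr, the leptin receptor, a STAT3 activator, was at 1.94 ± 0.456 CPM in MAMs and 220.1 ± 35.4 in RAMs (log2 fold change -6.83). Il21r, the interleukin-21 receptor, which also signals through STAT3, was at 115 ± 10.1 CPM in MAMs and 1.20 ± 0.399 in RAMs (6.59 on the log2 scale). Il7r, the interleukin-7 receptor, which signals through STAT5, was at 267 ± 12.9 CPM in MAMs and 2.89 ± 0.237 in RAMs (6.53 on the log2 scale). Csf2ra, the GM-CSF receptor chain with the highest mean FPKM of the list, was at 249 ± 24.3 CPM in MAMs and 277 ± 31.5 in RAMs and did not pass (adjusted p = 0.167 in the edgeR test). The lower level in CPM was 0.881% of the higher for Lepr, 1.04% for Il21r and 1.08% for Il7r, near the lowest shares that abundant genes showed, as given with Stat4. What part a level common to all genes had in them was not tested. Lepr reached the FPKM filter in RAMs alone, and Il21r and Il7r reached it in MAMs alone. The filter thus favoured the direction of each.

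Further chains were chosen after their values were seen. Csf2rb, the signalling chain of the GM-CSF receptor, was lower in MAMs, as were the Stat5 genes, at 567 ± 46.6 CPM against 1429 ± 31.9 in RAMs (log2 fold change -1.33). Il6st, which encodes gp130, was lower at 232 ± 14.4 CPM in MAMs against 484 ± 66.4 in RAMs (-1.06 on the log2 scale), while Stat3 and Socs3 were higher. Lifr, a partner chain of gp130, was higher in MAMs, at 70.1 ± 14.7 CPM against 1.13 ± 0.338 in RAMs (5.94 on the log2 scale). It reached the FPKM filter in MAMs alone, which favoured this direction. Il4ra, the chain upstream of STAT6, was higher by 1.23 on the log2 scale, at 248 ± 26.9 CPM in MAMs and 106 ± 7.69 in RAMs. Ifnar1, a chain of the type I interferon receptor, was at 255 ± 22.3 CPM in MAMs and 57.2 ± 3.03 in RAMs (2.15 on the log2 scale). Ifnar2, the other chain of that receptor, was at 314 ± 24.7 CPM in MAMs and 85.1 ± 5.34 in RAMs (1.88 on the log2 scale). Il12rb2, upstream of STAT4, went the opposite way to Stat4, at 5.79 ± 2.95 CPM in MAMs and 86.7 ± 6.70 in RAMs (log2 fold change -3.90). Its partner chain Il12rb1 was under the filter, with 23 to 78 counts in MAM libraries and 0 to 16 in RAM libraries.

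Other feedback genes of the pathway were counted in the same way. Of 15 genes, 8 were higher in MAMs (28.9% of all genes were), 1 was lower (27.3%) and 6 did not pass, with 2 called higher (background 15.3%), 1 called lower (background 15.1%) and a median log2 fold change of 0.28. The largest change was in Usp18, an interferon-induced brake on the type I interferon receptor, at 175 ± 25.3 CPM in MAMs and 2.27 ± 0.351 in RAMs (log2 fold change 6.27). Socs6 and Cish followed, as described with their family. Ptpn6, the phosphatase SHP-1 and the gene of highest mean FPKM in this list, was at 200.4 ± 26.2 CPM in MAMs and 202 ± 24.4 in RAMs (-0.015 on the log2 scale, adjusted p = 0.913 by the edgeR test). The SOCS box of SOCS proteins recruits a ubiquitin ligase, and of its 4 partner genes 3 were higher in MAMs (28.9% of all genes were), none was called (background 30.3%), and the median was 0.64. Elob (elongin B) was at 20.1 ± 1.96 CPM in MAMs and 11.3 ± 1.39 in RAMs, 0.84 apart on the log2 scale. Eloc (elongin C) was at 75.9 ± 4.64 and 46.9 ± 1.80 CPM (0.69 on the log2 scale), and Rnf7 at 63.9 ± 3.59 and 42.6 ± 3.87 CPM (0.59). Cul5, the cullin of the complex, did not pass at 63.0 ± 6.68 and 54.7 ± 4.86 CPM (chosen after its values were seen).

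Known targets of each factor were then counted, as lists from general knowledge that were chosen with earlier results of these data known. Of 21 targets of the STAT2 and IRF9 complex, 21 were called higher in MAMs (15.3% of all genes were), with a median log2 fold change of 6.27. Ifi44 was at 134 ± 30.6 CPM in MAMs and 0.886 ± 0.232 in RAMs (log2 fold change 7.22). Mx2, an antiviral GTPase, was at 88.3 ± 17.0 and 0.714 ± 0.307 CPM (6.95 on the log2 scale). Rsad2, which encodes viperin, was at 1561 ± 232 and 15.2 ± 2.83 CPM (6.69 on the log2 scale). Isg15, a ubiquitin-like protein and the most abundant by FPKM, was at 453 ± 119 and 5.90 ± 0.804 CPM (6.26 on the log2 scale). These changes exceeded that of Stat2 itself, and the RAM level in CPM was 0.660% of the MAM level for Ifi44, 0.808% for Mx2, 0.972% for Rsad2 and 1.30% for Isg15. The lowest such share among abundant genes was given with Stat4, and its part in these levels was not tested. Ifi44 and Mx2 reached the FPKM filter in MAMs alone, which favoured their direction. Irf9, the DNA-binding partner of STAT2, was at 118 ± 13.9 CPM in MAMs and 27.6 ± 2.94 in RAMs (chosen after its values were seen).

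Targets of the other factors were split. For STAT3, 8 of 11 targets were higher in MAMs (28.9% of all genes were), 2 were lower (27.3%) and 1 did not pass. Of the 11, 5 were called higher (background 15.3%) and 1 lower (background 15.1%), with a median log2 fold change of 0.89. Bcl3, a nuclear partner of NF-kappa B, was at 63.9 ± 11.05 CPM in MAMs and 5.36 ± 1.45 in RAMs (log2 fold change 3.58). Etv3, a repressor in the interleukin-10 response, was at 117 ± 23.8 and 24.8 ± 3.02 CPM (2.24 on the log2 scale). Cebpd, a C/EBP factor, was lower, at 5.96 ± 0.855 CPM in MAMs and 16.0 ± 2.82 in RAMs (log2 fold change -1.42). Mcl1, a survival gene and the most abundant by FPKM, was at 1279 ± 90.3 and 1223 ± 78.2 CPM and did not pass. For STAT4, 1 of 5 targets and partners could be tested, Il12rb2, which was lower as given with the receptors. Ifng, the classic STAT4 target, had 0 counts in each MAM library, which allows up to 3 counts, or 0.0431 to 0.0671 CPM, and 0 to 23 counts in RAM libraries. Il18rap was at 5.10 ± 1.48 CPM in MAMs and 2.31 ± 0.987 in RAMs, Il18r1 at 1.06 ± 1.49 and 0.814 ± 0.2998, and Tbx21 at 0.0146 ± 0.0236 and 0.0512 ± 0.114. The genes of this list besides Il12rb2 were under the filter and were named after their values were seen.

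For STAT5, 5 of 6 tested targets were higher in MAMs (28.9% of all genes were) and 1 was lower (27.3%). Of the 6, 3 were called higher (background 15.3%) and 1 lower (background 15.1%), with a median log2 fold change of 0.87. Bcl2l1, which encodes the survival protein BCL-XL, was at 113 ± 13.5 CPM in MAMs and 28.2 ± 4.77 in RAMs (log2 fold change 2.00). Id2, an inhibitor of helix-loop-helix factors, was at 101 ± 24.5 and 34.2 ± 4.18 CPM (1.56 on the log2 scale). Ccnd2, a cyclin and the most abundant of the list by FPKM, was at 598 ± 177 and 388 ± 30.9 CPM (0.63 on the log2 scale). Of the 6, Cish was lower, and the other 5 were higher.

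For STAT6, 7 of 14 targets were higher in MAMs (28.9% of all genes were), 5 were lower (27.3%) and 2 did not pass. Of the 14, 6 were called higher (background 15.3%) and 5 lower (background 15.1%), with a median log2 fold change of 0.85. The called genes lay on both sides, from -6.44 to 6.76, with Klf4 (-1.17) and Irf4 (1.31) closest to the fold threshold (both chosen after their values were seen). Ccl24, an eosinophil chemokine, was at 44.2 ± 16.7 CPM in MAMs and 0.401 ± 0.158 in RAMs (log2 fold change 6.76). Retnla, a marker of interleukin-4 activation, was at 268 ± 165 and 2.53 ± 0.557 CPM (6.74 on the log2 scale), from 82.2 CPM in MAM replicate 4 to 471 in MAM replicate 1. Alox15, a lipoxygenase, was at 93.2 ± 73.1 and 0.983 ± 0.198 CPM (6.56 on the log2 scale), again lowest in MAM replicate 4 and highest in replicate 1. Chil3, a chitinase-like protein that alveolar macrophages also make, went the other way, at 105 ± 10.9 CPM in MAMs and 9151 ± 1087 in RAMs (log2 fold change -6.44). The lower level in CPM was 0.908% of the higher for Ccl24, 0.941% for Retnla, 1.05% for Alox15 and 1.15% for Chil3, again near the lowest shares given with Stat4. Ccl24 and Alox15 reached the FPKM filter in MAMs alone, which favoured their direction.

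**Figure D5:**
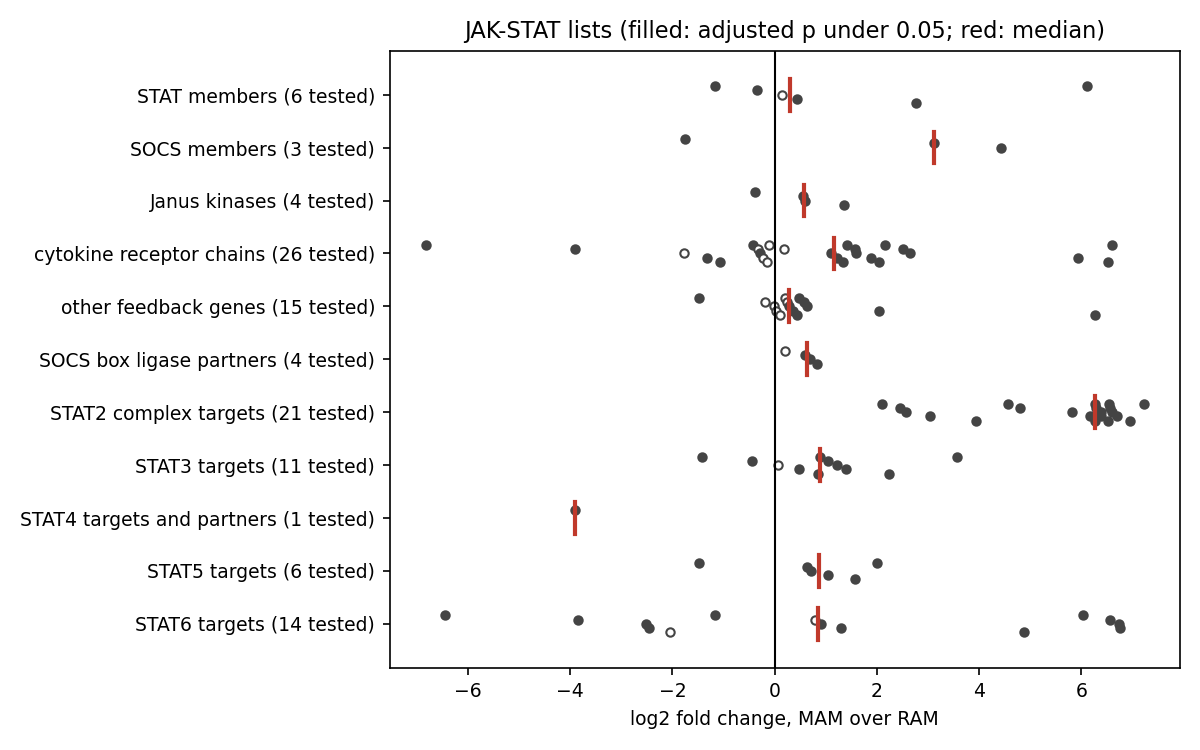
Log2 fold change of MAMs over RAMs for each tested gene of the STAT and SOCS members and of 9 lists of the pathway, filled where the adjusted p was under 0.05, with a red bar at each median. The STAT2 complex targets lie to the right of 0 with a median of 6.27, and the STAT6 targets spread from -6.44 to 6.76.

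Taken once each, the 9 lists held 97 tested genes, of which 81, or 83.5%, passed, against 56.2% of all genes tested. Of the 97, 60 (61.9%) were called, against 30.3% of all genes. Those called higher were 49 (50.5%, background 15.3%), and those called lower were 11 (11.3%, background 15.1%). Their median log2 fold change was 1.04, beside -0.015 for all genes tested. Lists share genes, such as Cish and Usp18, and no list was tested as a set. Some genes reached the FPKM filter in MAMs alone, such as Il7r and Mx2, and the filter favoured that direction for them. They were chosen with earlier results of these data known, which limits what these shares can mean.

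The 3 tested genes with the closest profile were found by the root mean square difference of centred log2 CPM over the 10 libraries, and are given for 8 of the 9 members. Stat2 was closest to Znfx1 (0.155), then Plekhn1 and Itsn1. Stat3 was closest to Trak2 (0.0579), then Ube2d3 and Pikfyve. For Stat4 the order was P4ha2 (0.307), Vegfa and Cd40. Stat5a lay nearest to C2cd5 (0.113), Cryl1 and Bin2, and Stat5b nearest to Sdha (0.0864), Hook3 and Mau2. Socs1 had no close neighbour, since its nearest, Adamtsl5, was at 0.751, followed by Hspb1 and 6530402F18Rik. Socs2 was nearest to Peg13 (0.178), Marveld1 and Myo7a, and Socs3 to Stx11 (0.288), Xaf1 and Lrrc25. A close profile mostly repeats the difference between the groups.

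Markers of the remaining cell types were measured as sums over each whole list, and their part in the STAT and SOCS levels was not tested. The 5 B cell markers summed to 11.1 ± 7.09 CPM in MAMs and 10.4 ± 5.87 in RAMs (SD, n = 5 each), and 3 were tested, of which none passed the edgeR test. Cd79a, the B cell marker with the highest mean over all libraries, was at 2.15 CPM in MAMs and 3.75 in RAMs. The 8 neutrophil markers summed to 58.1 ± 34.1 and 92.6 ± 22.6 CPM, led by Mmp8 at 42.0 and 58.5 CPM, and to 16.1 ± 13.4 and 34.1 ± 11.7 without it. Of 4 neutrophil markers tested, S100a8 (log2 fold change 1.12) and S100a9 (3.47) were called higher in MAMs, Cxcr2 (-2.07) was called lower, and Mmp8 did not pass. Ly6g, which defines neutrophils, was at 0 counts in each RAM library and had 0 to 66 in MAM libraries. The 7 dendritic cell markers summed to 7.67 ± 4.24 CPM in MAMs and 22.2 ± 3.74 in RAMs. The lower dendritic cell sum in MAMs rested on Clec9a, at 1.01 CPM in MAMs and 19.4 in RAMs (log2 fold change -4.26), since the other 6 markers summed to 6.66 ± 3.80 CPM in MAMs and 2.80 ± 1.01 in RAMs. Ccr7, the other dendritic cell marker tested, was called higher in MAMs, at 1.94 and 0.321 CPM (log2 fold change 2.58). Epithelial and tumour cell markers, 7 in all, summed to 15.3 ± 5.56 CPM in MAMs and 643 ± 50.9 in RAMs, led by Krt19 at 6.09 and 436 CPM. Without Krt19 their sums were 9.21 ± 3.88 and 208 ± 4.67 CPM, and of 4 tested 3 were called lower in MAMs and 1, Krt18, did not pass, at 1.81 ± 3.93 CPM in MAMs and 0.119 ± 0.183 in RAMs. Among those not tested, Krt8 was at 1.48 ± 1.07 CPM in MAMs and 0.0453 ± 0.0900 in RAMs, with 34 to 148 counts against 0 to 12, so its groups did not overlap. Krt14 was at 0.107 ± 0.214 CPM in MAMs and had 0 counts in each RAM library, and Krt5 had 0 counts in all libraries. Lung epithelium markers, 6 in all, summed to 7.67 ± 5.75 and 34.8 ± 8.75 CPM, led by Sftpc at 4.03 and 14.4 CPM, and to 3.64 ± 2.88 and 20.3 ± 2.50 without it, with 3 of 4 tested called lower in MAMs. The 8 endothelial and fibroblast markers had a higher sum in MAMs, at 67.4 ± 21.7 CPM against 8.09 ± 4.42 in RAMs, led by Kdr at 29.0 and 0.948 CPM. Without Kdr the sums were 38.4 ± 12.0 and 7.14 ± 3.84 CPM. All 4 of these markers that were tested, Pecam1, Cdh5, Kdr and Col1a1, were called higher in MAMs. Each reached the FPKM filter in MAMs alone, so the filter itself favoured this direction. In RAMs their mean FPKM was 0.667, 0.739, 0.175 and 0.0570, in the same order. Col1a2, not tested, was at 2.62 CPM in MAMs and 0.517 in RAMs. Col3a1 and Dcn, also not tested, were at 5.23 and 0.265 CPM and at 1.53 and 1.05 CPM. Cldn5 had 0 counts in each MAM library and 0 to 54 in RAM libraries. Of 7 erythrocyte markers, 6 had 0 counts in all libraries, and Alas2 was at 3.05 CPM in MAMs and 3.70 in RAMs. In the FPKM values, Hbb-bs was at 2.94 ± 5.79 in MAMs and 0.00303 ± 0.00177 in RAMs, Hbb-b1 at 2.43 ± 2.17 and 0.235 ± 0.181, Hba-a1 at 0.662 ± 0.388 and 0.119 ± 0.0935, and Hba-a2 at 0.0258 ± 0.0172 and 0.0108 ± 0.00848. Of all genes tested, 15.3% were called higher and 15.1% lower. The filter also favoured the direction of other cell type markers that reached it in 1 group alone. Examples are Klrk1, Cd4 and Ccr7 in MAMs and Prf1 and Clec9a in RAMs. Genes named for these cell types were chosen after their values were seen, except the most abundant of each list.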

How the data were processed

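RNA from 5 MAM and 5 RAM libraries was sequenced. According to the submitters' processing notes, reads were aligned to mm10 with TopHat2 2.0.13. The authors deposited an unnormalized count per gene from HTSeq 0.6.1 and an FPKM per gene from Cufflinks 2.2.1, and used DESeq2 1.6.3. Lines that name no gene, 56.5% ± 1.65 of all counts in MAMs and 63.2% ± 0.898 in RAMs (SD, n = 5 each), were left out.

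The fit held the 11571 genes whose mean FPKM reached 1 in either group and that had a count in any library. It was made with edgeR 4.0.16 (R 4.3.3), with TMM scaling, a quasi-likelihood test and Benjamini-Hochberg adjustment across these genes. A prior count of 2 was used for the log2 CPM of the closest profiles and was not set in the fit. Called genes had an adjusted p under 0.05 and a fold change over 2. Shares and log2 ratios of FPKM were compared by a two-sided exact permutation test over the 252 ways to choose 5 of 10 libraries. The fit was tested on simulated data. Alternatives were RLE and upper-quartile scaling, DESeq2 1.42.0, edgeR's own filter, no filter, a replicate block, limma 3.58.1 on log2(FPKM + 1) and log2(FPKM + 0.1), CPM in place of FPKM for shares, and each library left out. Sums of marker lists without their most abundant gene were added after seeing the data. Named genes were the 9 members, the 3 largest passing changes and the highest mean FPKM of each pathway list, the 3 closest profiles of each member, and the most abundant gene of each list of other cell types. Members and lists were chosen with earlier results of these data known. GENCODE M21 (GRCm38) gave the positions of genes, and RefSeq (GRCm38.p6) their promoters. Sequences were searched with Python 3.11.15, and figures were drawn with matplotlib 3.10.9.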

Additional observations from a re-analysis of the deposited data

How the results depend on the processing

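All 6 calls among the 9 genes were kept under each alternative, and Stat3 and Stat5b passed the test under each. With a library left out, 202 of the recomputed results kept their direction and side of the threshold, or for counts of called genes stayed within 1.5 times. Of the rest, 1 newly passed the threshold and 7 no longer did. Under the other alternatives 104 of 105 kept both, or for counts of called genes stayed within 1.5 times, and 1 changed direction, Stat6, which did not pass the test, at -0.012 under upper-quartile scaling. The 1 that newly passed was Stat6 without MAM replicate 1 (0.19, adjusted p = 0.0367 in the edgeR test). The 7 were the Socs1 share of SOCS FPKM, which ran from 8.85 to 13.5 percentage points and passed in 3 of 10 comparisons (exact permutation test, p from 0.0159 to 0.0794), and the cause was not tested. With CPM in place of FPKM this share differed by 4.07 points (exact permutation test, p = 0.0476), against 10.4. Without their most abundant gene, an alternative added after seeing the data, 3 sums of markers changed direction, at 12.4 CPM (MAMs minus RAMs) for T cells, -9.94 for natural killer cells and 3.86 for dendritic cells. With the replicate block, 3526 genes were called, against 3511 without it, and 6 of the 9 genes. The count was 2904 with limma on log2(FPKM + 1), 3958 with the filter of edgeR and 4672 with no filter. Upper-quartile scaling gave 1555 genes called higher and 2058 lower, against 1766 and 1745. MAM and RAM libraries of the same replicate number shared no more than the number, with correlations across genes of -7.04e-05, -0.0366, 0.0294, 2.23e-05 and 0.0146, and genes are not independent replicates. Depth limits Stat4 and Socs1 in RAMs most, at 7 to 27 and 2 to 126 counts.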
